A study of Mus musculus with 2 samples.

Results

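The cells described here were 400 stromal cells of aged mouse gonadal white adipose tissue (gWAT) with the highest combined RNA of Cd36, Meox2, Aspn and Notch3. They were chosen by these measured values from both libraries of the study together. A gate first kept cells with over 1000 and under 7000 detected genes, under 8% mitochondrially encoded molecules, under 5 molecules of mesothelial markers, under 1% of immunoglobulin molecules, under 3 of Calca and Ncam1 and under 10 of Pi16 and Dpp4. The gate held 7010 of 17404 barcodes, and each of its cells was scored by the mean of log1p(molecules per 10000) over the 4 genes. The 400 members made up 5.71% of the gate and the other 6610 cells are called the rest. The 4 score genes, and any difference between members and the rest, were fixed by this choice and are given as description without a test.

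The mice were 18-month-old males of the genotype p16-CreERT2/R26-LSL-tdTomato, in which tamoxifen activates a Cre recombinase made in cells that use the p16 promoter, and the recombined cells and their progeny then make tdTomato. All mice received tamoxifen, both fractions came from these mice, and the number of mice pooled in a library was not given in the sources used here. CD31- CD45- cells, meaning cells without the endothelial and leukocyte surface markers, were sorted into Tom+ and Tom- fractions, and 1 droplet library was made of each. The Tom+ library held 61119807 unique molecular identifiers (UMIs, each counting 1 captured RNA molecule) in 5566 barcodes and the Tom- library 96872394 in 11838. With 1 library per fraction there is no replicate error and no test, and the fraction and its preparation cannot be told apart. Levels are CPM, UMIs per 1000000 UMIs of the summed cells, with exact Poisson 95% intervals. Ratios and shares carry exact binomial 95% intervals, and all intervals cover counting error only.

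Adipocyte progenitor cells (APCs) are fibroblast-like cells of the fat stroma that can divide, lay down extracellular matrix and become adipocytes. Early progenitors are known to carry Pi16 and Dpp4, while committed preadipocytes switch on Pparg, the master regulator of fat cell formation, with lipid genes such as Lpl and Fabp4. Among the score genes, Cd36 encodes a fatty acid receptor that also marks macrophages and capillary endothelium, and Meox2 a homeobox transcription factor of mesodermal tissue. Aspn encodes asporin, a small leucine-rich proteoglycan that binds collagen, and Notch3 a receptor best known in mural cells, the pericytes and smooth muscle around vessels.

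The score genes lie at chr5:17781690-17888801, minus strand (Cd36), chr12:37108540-37179534, plus strand (Meox2), chr13:49544443-49567565, plus strand (Aspn) and chr17:32120820-32166852, minus strand (Notch3) in the mouse build GRCm38, which mm10 is. The 250 bases before each RefSeq start are shown because these 4 genes were read together to choose the cells. They came from the RefSeq table for GRCm38.p6, at chr5:17835897-17836146, minus strand, chr12:37108290-37108539, plus strand, chr13:49544193-49544442, plus strand and chr17:32166891-32167140, minus strand, in the same order. Capitals mark exact matches to TGGGAA (the core read by the Notch partner RBPJ), TATAAA (the TATA box), CCAAT (read by the factor NF-Y) and GGGCGG (read by the SP factors) on either strand, and no matches overlapped.
Cd36: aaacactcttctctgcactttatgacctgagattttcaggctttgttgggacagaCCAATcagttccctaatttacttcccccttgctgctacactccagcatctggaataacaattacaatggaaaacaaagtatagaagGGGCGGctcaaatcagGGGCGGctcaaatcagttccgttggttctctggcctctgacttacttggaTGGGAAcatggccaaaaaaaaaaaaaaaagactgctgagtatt
Meox2: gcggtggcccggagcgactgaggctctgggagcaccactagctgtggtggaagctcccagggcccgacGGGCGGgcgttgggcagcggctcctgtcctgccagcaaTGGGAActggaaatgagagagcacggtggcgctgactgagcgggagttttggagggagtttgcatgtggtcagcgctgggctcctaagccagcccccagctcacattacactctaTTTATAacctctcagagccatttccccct
Aspn: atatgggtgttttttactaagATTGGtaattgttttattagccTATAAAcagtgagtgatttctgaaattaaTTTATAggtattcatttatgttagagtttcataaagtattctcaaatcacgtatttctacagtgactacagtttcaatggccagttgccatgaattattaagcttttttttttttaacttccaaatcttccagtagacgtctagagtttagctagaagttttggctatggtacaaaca
Notch3: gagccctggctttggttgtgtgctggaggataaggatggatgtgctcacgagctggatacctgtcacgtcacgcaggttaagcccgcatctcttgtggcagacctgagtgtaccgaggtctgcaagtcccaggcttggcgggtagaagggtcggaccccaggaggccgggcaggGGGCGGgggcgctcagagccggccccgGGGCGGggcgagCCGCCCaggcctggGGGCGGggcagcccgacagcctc

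TGGGAA was in the windows of Cd36 and Meox2, and 21.6% of 32851 RefSeq promoter windows of the same 250 bases held it. TATAAA lay 29 to 24 bases before the Meox2 start on the opposite strand and in 2 places of the Aspn window, against 12.4% of all windows. CCAAT was in the Cd36 and Aspn windows (33.8% of all windows), and GGGCGG was in those of Cd36, Meox2 and Notch3, with 4 matches in Notch3 (32.7%). TAATTA, the core read by homeobox proteins, and TGACTCA, the AP-1 site, were in 4.84% and 4.46% of all windows and in neither strand of these 4. The share of G and C was 43.2% for Cd36, 62.0% for Meox2, 30.0% for Aspn and 68.8% for Notch3. The RefSeq start of Cd36 was 179 bases from the nearest GENCODE start and that of Notch3 38 bases, so those windows may not precede the start used in these cells.

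Some cells in the selection went against its name. Of the 400 members, 22 carried at least 10 UMIs of 10 leukocyte markers, 18 of them in Tom+ and 4 in Tom-, and these held 98.5% of all leukocyte marker UMIs in the members. All but 1 of the 22 had Cd36 RNA, and 3 had RNA of another score gene. Their median was 4 UMIs of Dcn, the decorin gene that marks fibroblasts, against 236 in the 370 members described below, and they held 576 of the 1910 Cd36 UMIs of the members. A further 3 members carried at least 10 UMIs of endothelial markers, 3 of mural markers and 3 of mature adipocyte markers, 1 cell meeting more than 1 limit. In all, 30 members (23 Tom+ and 7 Tom-) and 99 cells of the rest were set aside for having at least 10 UMIs of another lineage, a limit set after the data were seen. Tek, Des and Pdgfrb were not counted toward this limit, though they belong to the endothelial and mural lists summed below. Single cells that were kept held up to 18 (Tom+) and 14 (Tom-) Pdgfrb UMIs and up to 15 and 21 Des UMIs. Gene levels below are of the remaining 370 members (217 Tom+ and 153 Tom-) and 6511 cells of the rest, unless all 400 are named.

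With all 400, the 10 leukocyte markers together held 1725 CPM among Tom+ and 806 CPM among Tom- members, against 133 and 90.4 CPM in the rest, with Lyz2 the most abundant and none at 0. Without the cells set aside the sums were 20.7 and 23.00 CPM against 25.5 and 27.5 CPM, and Adgre1, the macrophage marker F4/80, was at 0. In the same cells, 10 endothelial markers summed to 42.7 and 39.1 CPM against 69.01 and 52.8 CPM, led by Tek, with Cdh5, Tie1 and Sox17 at 0. Mature adipocyte markers were also scarce, at 32.5 and 12.9 CPM over 7 genes against 19.5 and 4.72 CPM, led by Plin4, and Adipoq, Lep and Cidec were at 0. Mural markers (8 genes, led by Pdgfrb, which fibroblasts also express) summed to 356 and 298 CPM against 264 and 225 CPM, none at 0. Smooth muscle markers (6 genes, led by Myl9, none at 0) summed to 157 and 181 CPM against 119 and 164 CPM. They did not go 1 way: of 3 tested, 2 were higher in members of both libraries and 1 was at least 2-fold lower in both. Between the libraries, 1 of the 3 was at least 2-fold higher in Tom+ than in Tom- members. Schwann cell markers (5 genes, led by S100b, with Sox10 and Ncmap at 0) were at 4.83 and 3.68 CPM against 4.42 and 3.46 CPM. Mesothelial markers, limited by the gate, were at 88.6 and 181 CPM over 6 genes led by Wt1, none at 0, against 200.5 and 301 CPM. Tendon and perichondrium markers, led by Fmod among 6 genes with none at 0, were at 14.2 and 33.1 CPM against 16.7 and 33.4 CPM.

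**Figure D1:**
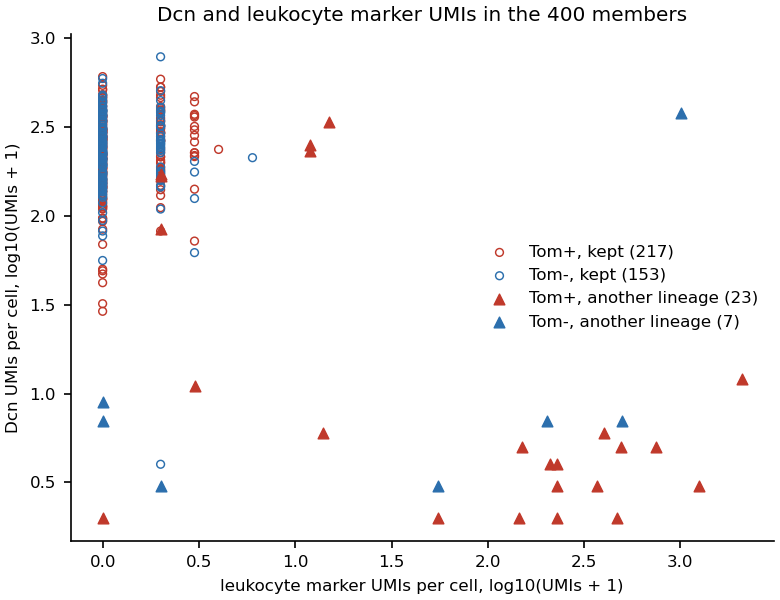
Each point is 1 of the 400 member cells, placed by its UMIs of 10 leukocyte markers (x axis) and of Dcn (y axis), both as log10(UMIs + 1), with open circles for the 370 cells kept and triangles for the 30 set aside as another lineage. The 22 cells with at least 10 leukocyte UMIs lie to the right of the others and mostly at low Dcn, 18 of them under 20 Dcn UMIs.

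The libraries also shared barcodes. The same barcode stood in both libraries 2224 times, and 302 gate cells (4.31%) and 48 members (12%) had such a barcode. Of the members, 44 were in Tom+ and 4 in Tom-, which made 18.3% of Tom+ members against 8.10% of the Tom+ cells of the rest. These Tom+ members had a median of 25994 UMIs, while the same barcodes had a median of 606.5 UMIs in the Tom- library. In 3 pairs both cells were in the gate, and in none were both members. The Tom+ share and the counts of genes past 2-fold are also given without these cells, and named genes whose sign turned without them are given with the alternatives.

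The 370 members were fibroblast-like by the general APC markers. Of the 370, 12 had no UMI of Pdgfra, the receptor that marks these progenitors, and 1 had under 20 UMIs of Dcn. Pdgfra was at 419 CPM (Tom+ members) and 351 CPM (Tom- members), against 382 and 298 CPM in the rest. Of 7 APC markers tested none differed by 2-fold in both libraries, and the medians of their log2 ratios of members over rest were 0.05 and 0.09 in Tom+ and Tom-. Dcn itself was somewhat lower, at 14690 CPM (Tom+ members) and 17705 CPM (Tom- members), against 21484 and 24183 CPM in the rest, with log2 ratios of -0.55 and -0.45. Ly6a, which encodes the progenitor surface protein Sca-1, had ratios of -0.28 and -0.10, and Gsn, the actin regulator gelsolin, 0.05 and 0.14. The markers of interstitial progenitors were partly limited by the gate, and of 9 tested Pi16 and Opcml were at least 2-fold lower in both libraries and none higher, with medians of -1.60 and -0.13. Markers of the regulatory stroma that carries F3 (8 tested, medians -0.04 and 0.09) had no gene past 2-fold.

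The score did not single out cells with all 4 genes. Of the 400 members, 35 had RNA of all 4, 110 of 3, 197 of 2 and 58 of 1 gene alone. Aspn was detected in 333 members, Notch3 in 210, Meox2 in 190 and Cd36 in 189, so Aspn was the gene that most members shared. The highest score was 1.97 and the median of the members 0.687, while 4545 gate cells (64.8%) had a score of 0. The last member inside the limit and the first cell outside it both scored 0.527. The former was a Tom- cell with 2 Meox2 and 4 Aspn UMIs of 15455, and the latter a Tom- cell with 8 Aspn UMIs of 11063. Within 0.05 of the limit lay 81 members and 65 other cells, and the limit itself was set by the number of cells taken.

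In the 370 members Aspn reached 425 CPM (404 to 446) among Tom+ cells and 396 CPM (370.03 to 423) among Tom- cells, against 25.8 and 23.2 CPM in the rest. Cd36 was at 201 CPM (Tom+ members) and 143 CPM (Tom- members), against 5.85 and 3.57 CPM in the rest. Meox2 was at 81.1 CPM (Tom+ members) and 161 CPM (Tom- members), against 11.3 and 10.7 CPM in the rest. Notch3 was at 109 CPM (Tom+ members) and 63.5 CPM (Tom- members), against 18.1 and 12.3 CPM in the rest. Meox2 was thus lower and Notch3 higher in Tom+ than in Tom- members, which depends in part on which score gene brought the cells of each library over the limit and is no result of its own. Because the Tom+ members were deeper (a median of 17009 UMIs per cell against 12988), shares of cells with a UMI were also counted after thinning each cell to 6959 UMIs, which left out 10 Tom+ and 7 Tom- members. Thinned, Aspn was found in 85.99% (80.5 to 90.4) of Tom+ and 74.7% (66.8 to 81.5) of Tom- members, and unthinned in 92.6% and 81.05%. In cells outside the gate that carried mesothelial markers, a type not known for Aspn, the thinned shares were 1.20% (0.248 to 3.47) and 1.32% (0.847 to 1.96). Their median depths were 17891 and 14678 UMIs, and the part of free RNA in these shares was not tested.

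**Figure D2:**
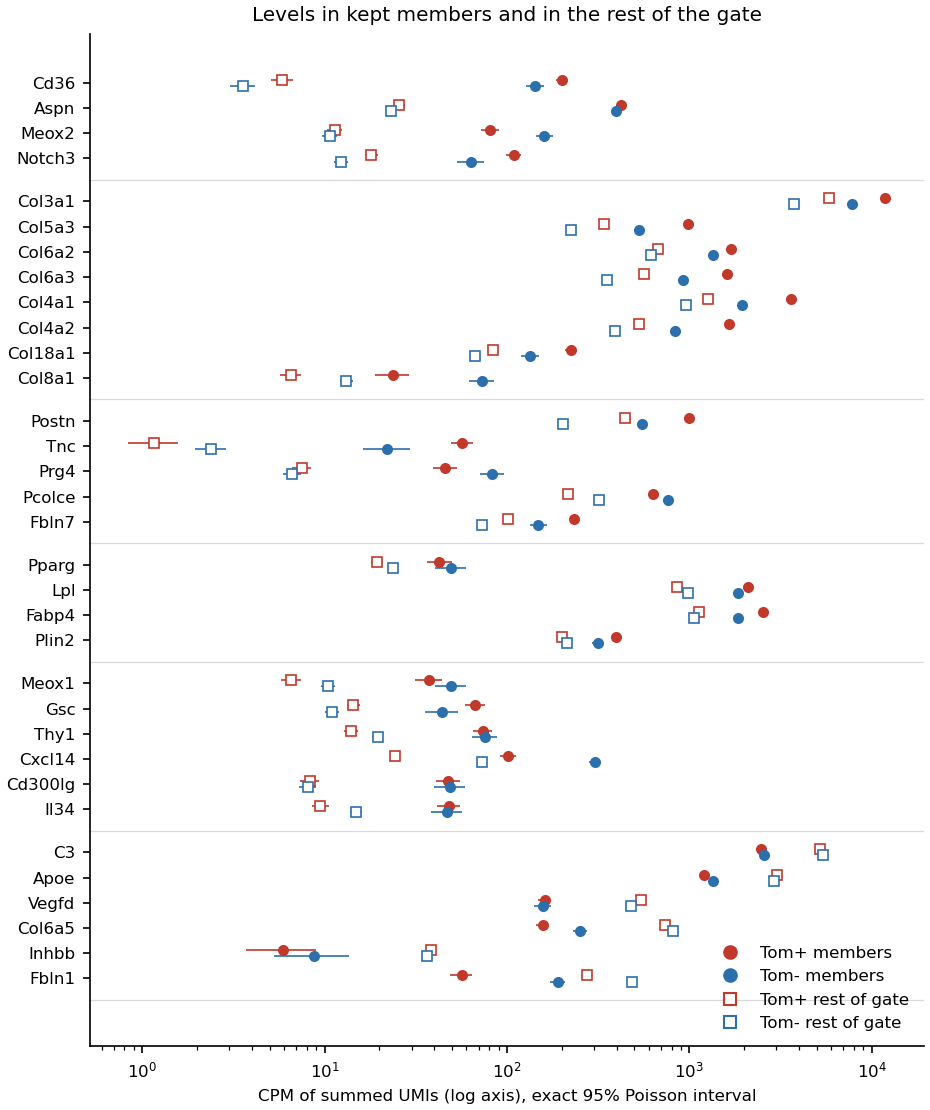
Levels in CPM (x axis, log scale) of 33 named genes in the 370 members (filled circles) and in the rest (open squares), red for Tom+ and blue for Tom-, 1 point per summed group of cells with its exact Poisson 95% interval. The score genes, the matrix and lipid genes and the next group lie higher in the members of both libraries, while C3, Apoe, Vegfd, Col6a5, Inhbb and Fbln1 lie lower.

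Beyond the score genes, the members carried more RNA of all 7 tested fibrillar collagens and of most basement membrane genes than the rest. Of 5937 genes averaging 20 CPM or more over members and rest, 52 (0.876%) were at least 2-fold higher in members in both libraries, the score genes included, and 47 (0.792%) at least 2-fold lower. With all 400 members the counts were 64 (1.07%) and 51 (0.853%) of 5982 genes, and without the shared barcodes 67 and 47. The median log2 ratio over all 5937 genes was 0.06 in Tom+ and 0.08 in Tom-, and 47.4% of them were higher and 25% lower by any amount in members of both libraries, which is the background for the list counts below. All these counts come from the cells that the score chose, so they describe the members and test nothing.

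The fibrillar collagens, which form the fibres of the stroma, were higher in members in 7 of 7 genes in both libraries, with medians of 0.98 and 0.92. Col3a1, the type III collagen, was at 11861 CPM (Tom+ members) and 7810.4 CPM (Tom- members), against 5819.7 and 3761 CPM in the rest. Its log2 ratio was 1.03 (1.01 to 1.04) in Tom+ and 1.05 (1.03 to 1.08) in Tom-. Col5a3, a type V chain, was at 989.98 CPM (Tom+ members) and 529 CPM (Tom- members), against 341 and 225 CPM in the rest, with ratios of 1.54 and 1.23, and Col27a1 at 45.9 CPM (Tom+ members) and 44.6 CPM (Tom- members), against 22.4 and 21.6 CPM in the rest, with 1.03 and 1.05. These 3 passed 2-fold in both libraries, and the most abundant others, Col1a1 and Col1a2 of type I collagen, had ratios of 0.48 and 0.58 and 0.501 and 0.54. Col5a1 and Col5a2 lay between, at 0.86 and 0.79 and 0.98 and 0.92. The 7 tested genes, of 11 in the list, thus lay on the same side, and with all 400 members Col5a3 alone passed 2-fold in both libraries, Col3a1 and Col27a1 having 0.91 and 0.95 in Tom+.

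Among 15 tested genes of the basement membrane, the sheet of type IV collagen and laminin that surrounds fat cells and vessels, 12 were higher in both libraries and 2 lower, with medians of 0.42 and 0.44. Col4a1 reached 3594 CPM (3533 to 3655) among Tom+ members and 1935 CPM (1877 to 1994) among Tom- members, against 1259.6 and 959 CPM in the rest, log2 ratios of 1.51 (1.48 to 1.54) in Tom+ and 1.01 (0.97 to 1.06) in Tom-. Its partner chain Col4a2 was at 1644 CPM (Tom+ members) and 840.4 CPM (Tom- members), against 531 and 391 CPM in the rest, with 1.63 and 1.10. The 2 genes lie head to head on chr8, Col4a1 at 11198423 to 11312826 on the minus strand and Col4a2 at 11312805 to 11449287 on the plus strand, and their annotated ends overlap. Col18a1, which gives endostatin, was the third past 2-fold, at 224 CPM (Tom+ members) and 134 CPM (Tom- members), against 84.4 and 66.9 CPM in the rest. Only Col4a2 passed 2-fold in both libraries with all 400 members, Col4a1 and Col18a1 having 0.99 and 0.98 in Tom-. Hspg2, the heparan sulfate proteoglycan perlecan, had ratios of 0.996 and 0.54, Nid1, the laminin linker nidogen, 0.39 and 0.49 and Sparc 0.59 and 0.69. The family was not uniform: Col4a5, another type IV chain, was lower, at 55.04 CPM (Tom+ members) and 52.4 CPM (Tom- members), against 174 and 101 CPM in the rest.

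Type VI collagen makes the beaded filaments around fat cells. Col6a3 was at 1602 CPM (Tom+ members) and 925 CPM (Tom- members), against 568 and 354 CPM in the rest, with ratios of 1.496 and 1.39, Col6a2 had 1.33 and 1.12 and Col6a1 1.03 and 0.86. Col6a5 went the other way by more than any of them, at 157 CPM (Tom+ members) and 252 CPM (Tom- members), against 734 and 811 CPM in the rest, ratios of -2.22 (-2.34 to -2.10) in Tom+ and -1.69 (-1.81 to -1.56) in Tom-. Col6a6, another alternative chain, was at 77.9 CPM (Tom+ members) and 63.9 CPM (Tom- members), against 167 and 114 CPM in the rest, with ratios of -1.10 and -0.83. So the 3 classical chains were higher and these 2 alternative chains lower in the same cells. Of the 8 genes of this list 3 were past 2-fold higher (Col6a2, Col6a3 and Col8a1) and 1 lower, with medians of 0.60 and 0.60. Col8a1, a short-chain network collagen, was at 23.6 CPM (Tom+ members) and 72.7 CPM (Tom- members), against 6.52 and 13.2 CPM in the rest. It was found in 18 Tom+ and 31 Tom- members, and 1 cell held 33.0% of its UMIs in Tom+ and 13.9% in Tom-.

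Other matrix genes differed one by one. Tnc encodes tenascin-C, an adhesion-modulating glycoprotein of remodelling tissue, and was at 56.7 CPM (Tom+ members) and 22.1 CPM (Tom- members), against 1.16 and 2.38 CPM in the rest, found in 34 of the Tom+ and 9 of the Tom- members, with 1 cell holding 16.6% and 35.4% of the UMIs. Postn, periostin, was at 1001 CPM (Tom+ members) and 554 CPM (Tom- members), against 446 and 204 CPM in the rest, with ratios of 1.17 and 1.44. These 2 were the genes past 2-fold of 12 tested in the matricellular list (medians 0.32 and 0.38). Of its 21 gene symbols 16 were found in the data, and the others were not looked up under other names. Fn1, fibronectin, had -0.05 and 0.06. Wisp2, a matricellular gene not counted in that list, had 1.01 and 1.57, though 0.87 in Tom+ with all 400 members. Pcolce, which speeds the trimming of procollagen, was at 629.6 CPM (Tom+ members) and 768 CPM (Tom- members), against 217 and 319 CPM in the rest, and Adamts12, a secreted metalloprotease, at 225 CPM (Tom+ members) and 219 CPM (Tom- members), against 111 and 77.2 CPM in the rest; they were the 2 of 22 proteases and inhibitors past 2-fold (medians 0.27 and 0.05), though Adamts12 had 0.92 in Tom+ with all 400 members. Among 19 elastic fibre genes (medians 0.07 and 0.13) Fbln7 was higher at 1.20 and 1.03, while Fbln1 and Mfap4 were lower at -2.29 and -1.36 and -1.42 and -2.15. Fbln5, needed for elastic fibre assembly, had 0.90 and 1.22. The 8 tested small leucine-rich proteoglycans other than Aspn had medians of 0.01 and -0.01 and none past 2-fold, with Bgn, biglycan, at 0.70 and 0.48 and Lum, lumican, at 0.15 and 0.09. The medians of the fibrillar collagens were thus higher than those of the proteoglycan, elastic fibre and protease lists.

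Pparg, Lpl and Fabp4, genes of committed preadipocytes, were higher in members, while the lists they came from were mixed. Pparg was at 42.7 CPM (Tom+ members) and 49.2 CPM (Tom- members), against 19.4 and 23.8 CPM in the rest, ratios of 1.13 (0.88 to 1.39) in Tom+ and 1.05 (0.75 to 1.34) in Tom-. Lpl, the lipase that frees fatty acids from lipoproteins, was at 2109 CPM (Tom+ members) and 1843 CPM (Tom- members), against 854 and 980.2 CPM in the rest, and Fabp4, a carrier of fatty acids in the cell, at 2536 CPM (Tom+ members) and 1856 CPM (Tom- members), against 1134 and 1062 CPM in the rest. Their ratios were 1.30 and 0.91 and 1.16 and 0.81, with a smaller difference in Tom- than in Tom+ for both. Plin2, which coats lipid droplets, had ratios of 0.98 and 0.57, and Col15a1, a matrix gene of preadipocytes, 0.97 and 0.71. Cebpa, which works with Pparg, did not follow, at 41.4 CPM (Tom+ members) and 46.5 CPM (Tom- members), against 40.4 and 47.2 CPM in the rest. Of 21 preadipocyte and lipid genes, 12 were higher and 6 lower in both libraries, Pparg past 2-fold higher and Apoe lower (medians 0.34 and 0.14), of 9 fatty acid uptake genes other than Cd36 3 were higher, 3 lower and none past 2-fold (medians 0.17 and -0.13), and of 19 adipogenic regulators only Pparg (medians -0.10 and 0.18). With all 400 members, which include cells with mature adipocyte and leukocyte markers, 18 of 23 preadipocyte and lipid genes were higher and 3 lower, 4 past 2-fold higher and none lower (medians 0.51 and 0.45), so this count depended on the 30 cells. Cebpb, the most abundant of the regulators, had ratios of -0.17 and -0.18.

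Relatives of the score genes were partly shared. Meox1, the paralogue of Meox2, was at 37.3 CPM (Tom+ members) and 49.2 CPM (Tom- members), against 6.55 and 10.4 CPM in the rest, with ratios of 2.51 and 2.24. Of 18 mesenchymal lineage factors other than Meox2 it was the only one past 2-fold higher, and Tcf21, a mesodermal factor, the only one lower, at 28.2 CPM (Tom+ members) and 70.4 CPM (Tom- members), against 155 and 187 CPM in the rest (medians 0.02 and -0.18). Gsc, the homeobox gene goosecoid, was chosen by size and not from that list, at 66.9 CPM (Tom+ members) and 44.2 CPM (Tom- members), against 14.4 and 11.03 CPM in the rest. For Notch3, 6 other genes of the Notch pathway were tested and none passed 2-fold (medians -0.01 and 0.17). Hes1, a target gene of Notch receptors, was at 197 CPM (Tom+ members) and 189.5 CPM (Tom- members), against 113 and 127 CPM in the rest, and Rbpj, which binds DNA with the receptor, had ratios of -0.22 and -0.07. The receptor was thus higher by its selection, while 1 target was higher by under 2-fold.

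The remaining genes among the 20 with the largest ratios in both libraries were of several kinds. Prg4 encodes lubricin, a secreted lubricant, and was at 45.9 CPM (Tom+ members) and 83.3 CPM (Tom- members), against 7.48 and 6.64 CPM in the rest. Mesothelial cells express it too: it was found in 18.8% and 16.2% of the thinned mesothelial-marked cells and in 9.18% (5.62 to 13.96) and 16.4% (10.8 to 23.5) of the thinned members. Cd300lg, a receptor known from capillary endothelium, was at 47.8 CPM (Tom+ members) and 48.8 CPM (Tom- members), against 8.28 and 8.09 CPM in the rest, while the summed endothelial markers given above were not higher in these members, from which cells rich in them had been set aside. With all 400 members their sum was 90.8 and 38.3 CPM against 69.6 and 57.3 CPM in the rest. Thy1, a surface protein of fibroblasts, was at 73.8 CPM (Tom+ members) and 75.4 CPM (Tom- members), against 13.9 and 19.5 CPM in the rest, and Mme, the peptidase neprilysin, at 58.3 CPM (Tom+ members) and 30.4 CPM (Tom- members), against 16.7 and 11.3 CPM in the rest. Il34, a growth factor for macrophages, was at 48.1 CPM (Tom+ members) and 46.9 CPM (Tom- members), against 9.50 and 14.9 CPM in the rest, and the chemokine Cxcl14 at 101 CPM (Tom+ members) and 304 CPM (Tom- members), against 24.4 and 73.3 CPM in the rest. Enpp6, a choline phosphodiesterase, had ratios of 1.93 and 1.66, Scg3, a granin of secretory granules, 1.81 and 1.66, Lrrn1 1.64 and 1.80, Acot7, an acyl-CoA thioesterase, 1.60 and 1.52 and Frmd4a 1.86 and 1.51. Fzd1, a Wnt receptor, was the Wnt gene past 2-fold higher of 11 tested (at 1.15 and 1.03) and Rspo1, which amplifies Wnt signals, the one lower (at -2.69 and -1.36), with list medians of -0.25 and 0.06. Fzd1 was not past 2-fold in Tom- (0.98) with all 400 members.

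With all 400 members, other genes led. Cfd, C1qa, C1qb, C1qc, Lyz2, Pf4, Mmp12, H2-Aa and Cd74 then stood among the 20 genes with the largest ratios, genes of macrophages and, for Cfd, of fat cells. Of 274 Cfd UMIs in the Tom- members, 273 were in 1 cell. The lower genes were then led by Mcpt4, Tpsb2 and Cma1, proteases of mast cells, of which 25 with at least 10 mast cell marker UMIs were in the rest and none among the members. These genes followed the cells set aside and are not listed as features of the 370.

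The lowest ratios of members over rest included several secreted signals. Cxcl13, a chemokine that attracts B cells, was at 0.806 CPM (Tom+ members) and 4.14 CPM (Tom- members), against 13.5 and 117 CPM in the rest. Cxcl10, an interferon-induced chemokine, was at 4.56 CPM (Tom+ members) and 21.2 CPM (Tom- members), against 39.7 and 80.8 CPM in the rest. Inhbb, the activin B subunit, was at 5.91 CPM (Tom+ members) and 8.74 CPM (Tom- members), against 38.5 and 36.5 CPM in the rest, and was the gene past 2-fold among 22 of the TGF-beta and BMP pathways (medians -0.13 and 0.10). Vegfd, a growth factor for lymphatic vessels, was at 161 CPM (Tom+ members) and 158 CPM (Tom- members), against 546 and 481 CPM in the rest, and Igf1 at 208 CPM (Tom+ members) and 364 CPM (Tom- members), against 557 and 757 CPM in the rest; they were the 2 of 21 growth factors and receptors past 2-fold (medians 0.02 and 0.05). The other genes of the 15 with the smallest ratios were Cpz, Arl4d, Hp, Flrt3, Fez1, Ptgis, Aldh1a3, Aox3, Opcml and Cpxm2, besides Col6a5 above. Of these, Hp, the haemoglobin carrier haptoglobin, was at 102 CPM (Tom+ members) and 185 CPM (Tom- members), against 309 and 632 CPM in the rest, Ptgis, prostacyclin synthase, at 50.7 CPM (Tom+ members) and 65.8 CPM (Tom- members), against 149 and 189 CPM in the rest, and Aldh1a3, which makes retinoic acid, at 53.2 CPM (Tom+ members) and 80.96 CPM (Tom- members), against 188 and 226 CPM in the rest.

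Complement genes were lower in members in 9 of 10 tested (25% of all genes) and higher in none, with medians of -0.83 and -0.64. C3, the central component, reached 2484 CPM (2434 to 2535) among Tom+ members and 2568 CPM (2501 to 2636) among Tom- members, against 5202 and 5406 CPM in the rest, and C7, a pore component, was at 18.3 and 73.1 CPM against 103 and 160.2 CPM. Apoe, the lipoprotein ligand, was at 1206 CPM (Tom+ members) and 1346 CPM (Tom- members), against 3021 and 2926 CPM in the rest, with ratios of -1.32 (-1.37 to -1.28) in Tom+ and -1.12 (-1.17 to -1.07) in Tom-. With all 400 members the Tom+ ratio of Apoe was -0.74, since the cells set aside carried Apoe too. Of 19 inflammatory secreted genes, Cxcl14 and Il34 were past 2-fold higher and Cxcl2, Cxcl10, Cxcl13, Lcn2 and Ptx3 lower (medians -0.38 and -0.67). Cxcl2 turned its sign in Tom+ (0.32) with all 400 members, and Ptx3 had -0.95 there. The most abundant was Cxcl1, a neutrophil chemokine, at 2056 CPM (Tom+ members) and 3258 CPM (Tom- members), against 2044 and 5182 CPM in the rest. Ccl11, eotaxin, had 0.89 and 0.18. Genes known to respond to tissue dissociation were also mostly lower: of 23 tested, 16 were lower in both libraries (25% of all genes) and 4 higher (47.4% of all genes), and Fosl1 and Myc were past 2-fold lower (medians -0.34 and -0.25). Their part in the lower inflammatory genes was not tested. Of 14 proliferation genes 1 was abundant enough to test, Pcna, with ratios of -0.38 and -0.13.

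For some abundant genes the difference was shared by most cells. Per cell and 10000 UMIs, Col4a1 had a median of 31.2 in Tom+ members against 7.94 in the Tom+ rest, and 94.9% of these members were above the median of the rest. In Tom- the medians were 15.02 and 6.08, and 85.6% were above. For Col3a1 the shares above were 85.7% and 83.0%, for Col6a3 93.5% and 83.7%, for Lpl 88.5% and 60.1% and for C3 10.1% and 17.0%. Lpl was thus the gene of these whose shift was least shared among Tom- members. Sparser genes were found in a minority of the cells: Pparg was above the median of the rest, which was 0, in 48.4% and 39.9% of members, and Meox1 had a UMI in 69 Tom+ and 52 Tom- members.

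Over the whole range of the score, levels of the same genes differed step by step. The gate was divided into the 400 highest cells, the next 400, the next 800, the 865 remaining cells above 0 and the 4545 cells at 0, and cells of another lineage were left out of each. From the highest to the lowest, Col4a1 went through 3594, 2579, 1867, 1290.2 and 927 CPM among Tom+ cells and 1935, 1771, 1347, 1110.1 and 791 CPM among Tom- cells. Col3a1 had the same order, from 11861 to 4826 CPM in Tom+ and from 7810.4 to 3137 CPM in Tom-. Apoe ran the other way, at 1206, 1857, 2619.6, 3097 and 3250.2 CPM in Tom+ and 1346, 1961, 2378, 2876 and 3113 CPM in Tom-. Meox1 went through 37.3, 25.7, 13.01, 5.03 and 2.89 CPM among Tom+ cells and 49.2, 38.7, 14.3, 10.3 and 7.39 CPM among Tom- cells, so it was low outside the upper groups. Cebpa showed no such order, at 41.4, 47.9, 38.8, 46.3 and 37.8 CPM in Tom+. The median depth was 17009, 15143, 14586, 15559 and 13100 UMIs in Tom+ and 12988, 11994, 10617, 12813 and 10619 in Tom-, and its part in the order was not tested.

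**Figure D3:**
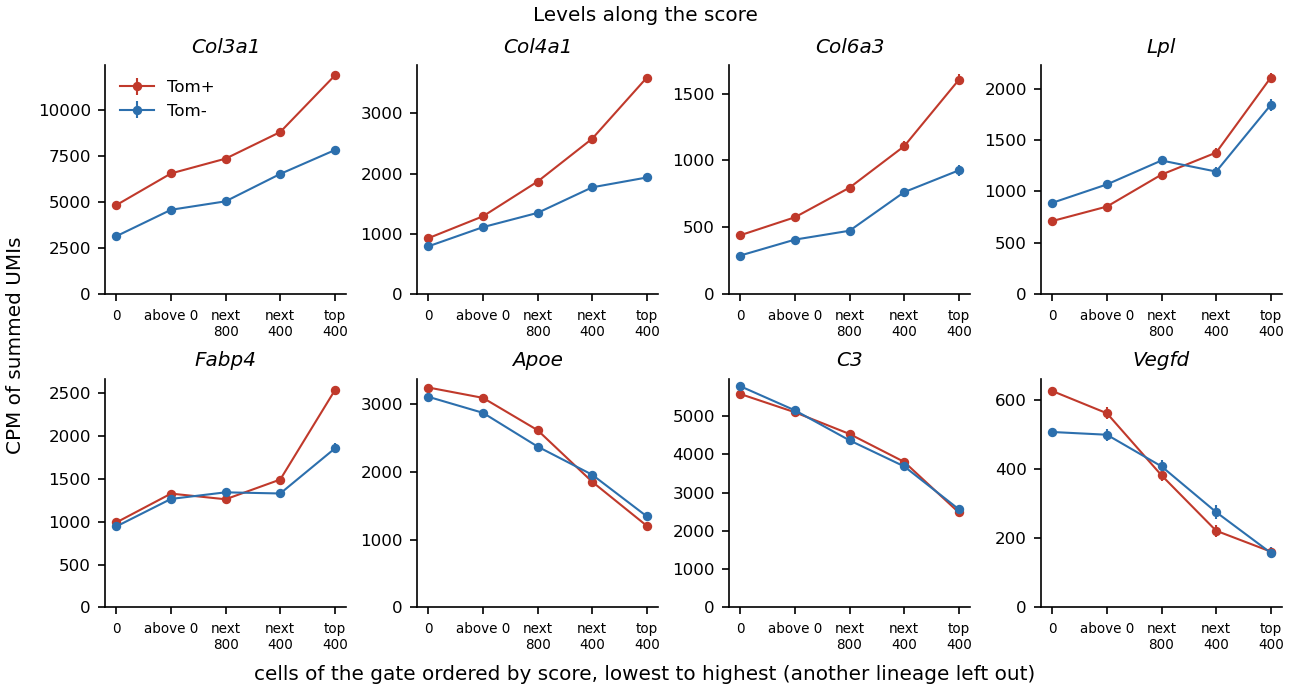
Levels in CPM (y axis, from 0) of 8 genes in 5 groups of gate cells ordered by the score, from the cells at 0 on the left to the 400 highest on the right, for Tom+ and Tom- cells with exact Poisson 95% intervals. Col3a1, Col4a1 and Col6a3 go up at each step in both libraries and Apoe, C3 and Vegfd go down, while Lpl goes up with 1 step down in Tom- and Fabp4 with 1 step down in each library.

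The members were not uniform among themselves. They were split, within the 370, by whether a cell had a UMI of each score gene. Since a member had to reach the limit, cells without one of the genes carried more of the others by construction. Genes outside the score are given, but a gene that varies with a score gene is shifted by the same choice. The part of the choice in these splits was not tested, and they are description only. Cells with Cd36 RNA (108 Tom+ and 53 Tom-) had more Fabp4, Plin2 and Lpl RNA. Fabp4 was at 3523 and 3106 CPM with and 1485 and 1151 CPM without, Plin2 at 472 and 502 CPM with and 319 and 214 CPM without and Lpl at 2302 and 2328 CPM with and 1904 and 1569 CPM without. Gsc and Cd300lg were also higher with Cd36, Gsc at 91.6 and 68.8 CPM with and 40.5 and 30.2 CPM without. Cells with Meox2 RNA held nearly all Prg4, at 86.2 and 148 CPM with and 5.89 and 6.05 CPM without. Prg4 was found in 30 cells of each library, and 1 cell held 28.7% of its UMIs in Tom+ and 16.0% in Tom-. Cells without Aspn were few, 16 in Tom+ and 29 in Tom-. Thy1 followed Aspn, at 77.7 and 90.8 CPM with and 22.9 and 2.64 CPM without (6 and 1 UMIs without), and so did Col6a3, at 1659.6 and 1046 CPM with and 847 and 353 CPM without. Postn followed Notch3, at 1224 and 775 CPM with and 551 and 383 CPM without, and was lower with Meox2, at 791 and 247 CPM with and 1209 and 919.7 CPM without. Col3a1 was higher with Notch3, at 12955 and 8961 CPM with and 9657 and 6925 CPM without, and went in opposite directions in the libraries when split by Cd36, at 12269 and 7193 CPM with and 11427 and 8159 CPM without. Lpl was also higher with Aspn, at 2159 and 2020.4 CPM with and 1450.2 and 1002 CPM without. Cells with Cd36 had medians of 17224 (Tom+) and 15155 (Tom-) UMIs, and the part of depth was not tested.

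**Figure D4:**
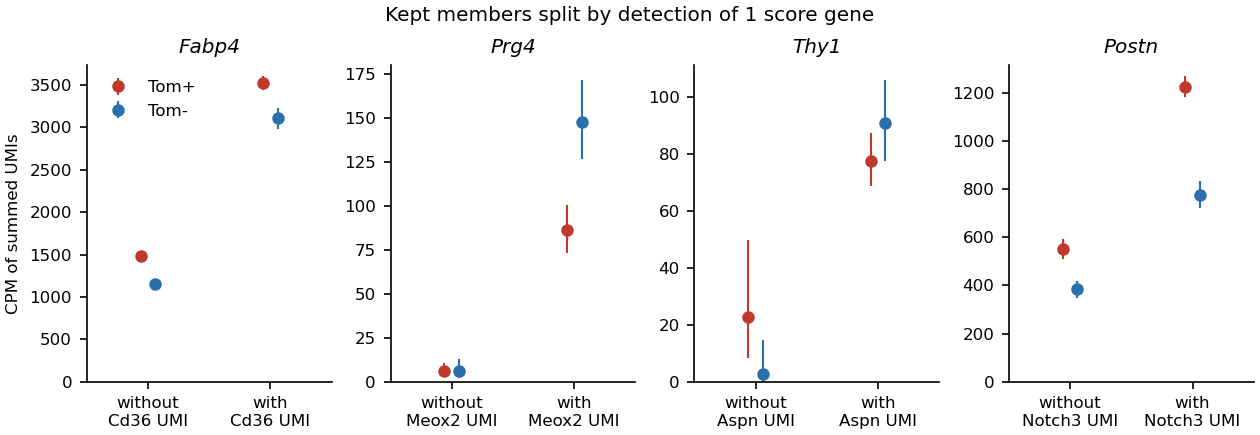
Levels in CPM (y axis, from 0) of Fabp4, Prg4, Thy1 and Postn in the 370 members with and without a UMI of 1 score gene, for Tom+ and Tom- cells with exact Poisson 95% intervals. Fabp4 lies higher with Cd36, Prg4 with Meox2, Thy1 with Aspn and Postn with Notch3 in both libraries.

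The Tom+ library gave more of the members than its share of the gate. Of the 400, 240 were Tom+ (60.0%, 55.0 to 64.8) against 2819 of 7010 gate cells (40.2%, 39.1 to 41.4). Members were 8.51% (7.51 to 9.61) of Tom+ gate cells and 3.82% (3.26 to 4.44) of Tom- gate cells. The share was 58.6% (53.4 to 63.7) of the 370, 55.7% (50.3 to 60.9) without the shared barcodes and 54.8% (49.3 to 60.3) without both kinds of cells. With members chosen after thinning to 6959 UMIs it was 57.75%. Down the score groups the Tom+ share was 58.6%, 46.5%, 43.2%, 46.3% and 36.2%. The intervals of the next 400 (41.5 to 51.6) and of the remaining cells above 0 (42.9 to 49.7) also lay above the share of the gate. That of the next 800 (39.7 to 46.7) took in the share of the gate, while that of the cells at 0 (34.8 to 37.7) lay below it. The excess over the gate was present in each of these counts of the members, and its size depended on the cells counted. It was absent by construction when members were chosen within each library (40.25%).

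The reporter RNA followed the sort but marked few cells. tdTomato reached 94.5 CPM (84.9 to 105) among Tom+ members and 14.3 CPM (9.69 to 20.2) among Tom- members, a log2 ratio of 2.73 (2.20 to 3.31), and was at 151 and 13.3 CPM in the rest. A UMI was found in 61 of 217 Tom+ and 24 of 153 Tom- members, and 1 Tom+ cell held 22.4% of the Tom+ UMIs. Thinned, the shares were 14.5% (9.997 to 20.04) and 6.85% (3.33 to 12.2) in members, 15.5% (14.04 to 17.00) and 8.29% (7.401 to 9.25) in the rest and 68.4% (62.2 to 74.1) and 5.28% (4.295 to 6.41) in mesothelial-marked cells. The sort read the protein, while reporter RNA was sparse in members of both libraries. The share of Tom+ members with a UMI was near that of the Tom+ rest, and their level was lower, with a log2 ratio of -0.68 (-0.84 to -0.52).

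Genes linked to senescence went in both directions between Tom+ and Tom- members. Cdkn2a, which encodes p16, was found in 5 Tom+ and 9 Tom- members, at 4.296 CPM (2.46 to 6.98) and 5.52 CPM (2.85 to 9.64), a difference that was not detectable at this depth. The 3' counts do not tell p16 from the other product of this gene. Cdkn1a, which encodes p21, reached 122 CPM (111 to 134) among Tom+ members and 173 CPM (156 to 192) among Tom- members, and was higher in the rest at 294 and 291 CPM. Glb1, the gene of the beta-galactosidase stained in senescent cells, was at 30.6 against 34.5 CPM. Gdf15, a stress-induced secreted factor, was at 60.95 CPM (Tom+ members) and 5.52 CPM (Tom- members), against 36.2 and 24.1 CPM in the rest, with a log2 ratio of Tom+ over Tom- members of 3.46 (2.63 to 4.44) against 0.59 in the rest, found in 27 Tom+ and 6 Tom- members. The ratio of Gdf15 ran from 1.88 to 3.69 with other choices of members and scaling. Of the 6 tested genes of the senescence and reporter list 3 were at least 2-fold higher in Tom+ than in Tom- members, against 0.775% of all 5937 genes, and none at least 2-fold lower. The 3 were Gdf15, Igfbp5 (described below) and the reporter, which the sort itself read, and the other 3, Cdkn1a, Glb1 and Trp53, had ratios of -0.502, -0.17 and -0.04. None of the 6 was past 2-fold in both libraries between members and rest (medians -0.07 and 0.03).

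Between Tom+ and Tom- members, 46 of 5937 genes (0.775%) were at least 2-fold higher in Tom+ and 68 (1.15%) at least 2-fold lower, with a median log2 ratio of 0.08. In the rest the counts were 23 (0.387%) and 42 (0.707%), over many more cells and UMIs. With all 400 members and 6610 other cells they were 69 (1.15%) and 78 (1.3%) of 5982 genes in members, beside 35 (0.585%) and 44 (0.736%) in the rest. The counts in members were 51 and 102 when all 400 were scaled by median-of-ratios size factors in place of total UMIs, 76 and 89 without the shared barcodes and 57 and 83 without both shared barcodes and other lineages. No replicate stands behind these ratios, and the ratio in the rest, given beside each, shows where the whole gate differed the same way.

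Igfbp5, a binding protein of insulin-like growth factors, was at 149 against 34.96 CPM in Tom+ and Tom- members, a log2 ratio of 2.09 (1.74 to 2.45), with 1.70 in the rest. Ighm and Igkc, immunoglobulin chains made by B-lineage cells, had 2.09 and 1.60, with 1.65 and 1.56 in the rest. Igkc UMIs were in all 217 Tom+ members, and the part of free RNA in these ratios was not tested. Mdk, the growth factor midkine, had 1.16 (rest 1.12), Sox4, a progenitor transcription factor, 1.14 (rest 1.16), Scg3 1.10 (rest 0.95) and Nrep 1.19 (rest 0.85). These were higher in Tom+ cells of the gate in general. Mmp3, the collagenase-activating stromelysin, had 1.62 in members and 0.54 in the rest, with 39.0% of the Tom- UMIs in 1 cell. Dtx4, a ubiquitin ligase of the Notch pathway, was at 71.96 against 30.4 CPM, with 1.25 in members and 0.66 in the rest. Pde3a, which breaks down cyclic AMP, had 1.24 (rest 0.54) and Mmp11 1.14 (rest 0.72). For these the members had the larger ratio, and the difference from the rest was not tested.

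The 12 genes with the lowest ratios between Tom+ and Tom- members were led by Trf. Trf, transferrin, was at 289.99 against 1117 CPM, a log2 ratio of -1.95 (-2.05 to -1.84) against -0.55 in the rest. Sult1e1, which inactivates oestrogens, was at 291 against 977 CPM, with -1.75 against -0.62, and Fbln1, fibulin-1, at 56.4 against 189.5 CPM, with -1.75 against -0.82. Penk, the precursor of enkephalins, had -1.65 against -0.96, Vit -1.54 against -0.67 and Matn2, a matrix adaptor, -1.41 against -0.48. Cxcl14 was at 101 against 304 CPM with the same ratio of -1.59 in members and rest. Adamts9, a versican-cleaving protease, had -1.92 against -1.67, Wisp2, a Wnt-linked matricellular gene also higher in members, -1.87 against -1.31 and Vwa1 -1.83 against -1.33. Odc1, the first enzyme of polyamine synthesis, had -1.47 against -0.94 and Gadd45g, a stress gene, -1.29 against -0.71.

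By list, the fibrillar collagens were higher in Tom+ than in Tom- members in 7 of 7 genes, where 60.8% of all 5937 genes were higher by any amount, with a median log2 ratio of 0.49 (rest 0.52), so the whole gate shared this. The median was 0.47 (rest 0.28) for the basement membrane, where Col4a1 had 0.89 (0.84 to 0.94) in members and 0.39 in the rest, and Col4a2 0.97 and 0.44. Complement genes had -0.61 (rest -0.48), inflammatory secreted genes -0.43 (rest -0.96) and dissociation genes -0.46 (rest -0.25). The preadipocyte and lipid list had 0.19 (rest 0.05), with Pparg at -0.21. The Wnt list, with 11 genes tested, had a median of -0.18 (rest 0.02). In Tom+ members 4 of the 11 were past 2-fold lower (1.15% of all 5937 genes) and 1 higher (0.775% of all genes). The higher one was Sfrp4, of which 1 Tom+ cell held 78.2% of the UMIs.

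**Figure D5:**
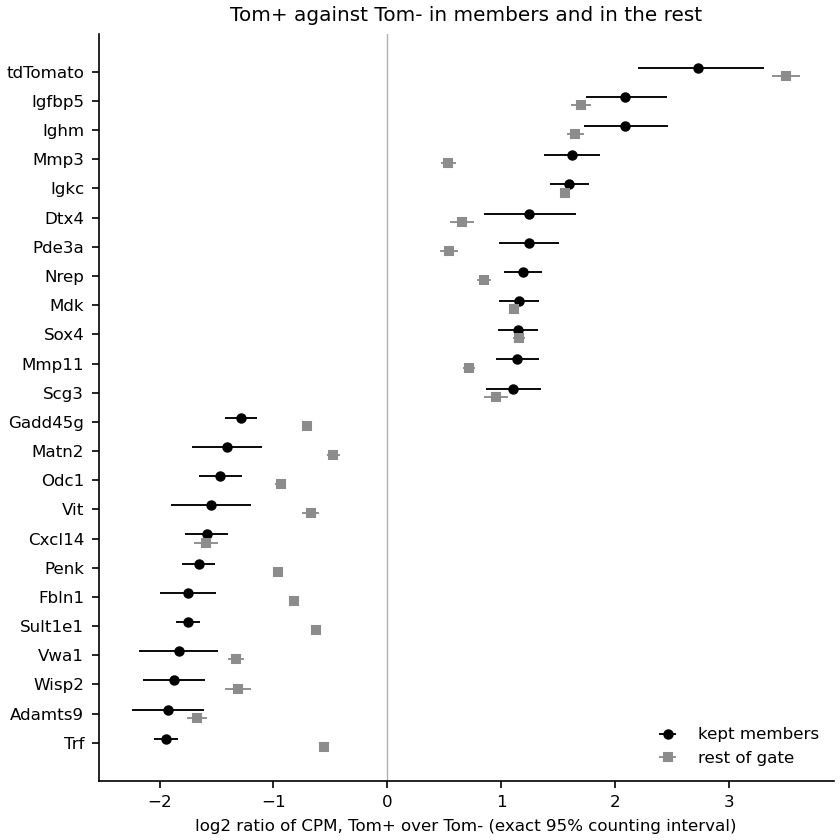
Log2 ratio of Tom+ over Tom- (x axis) of the 12 highest and 12 lowest genes in the 370 members (black circles) and in the rest (grey squares), with exact binomial 95% intervals. Igkc, Mdk, Sox4 and Cxcl14 have like ratios in both, while Mmp3, Trf, Sult1e1 and Fbln1 lie further from 0 in members than in the rest.

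Selections of 400 cells by other genes in the same gate shared few cells with the members. The 400 highest cells for Vtn, Cxcl14 and G0s2 shared 45 cells with the members, those for Cfd, Car3 and Itm2a 21 and those for Ptgds, Pi15, Eln and Pdlim3 13, which is 11.25%, 5.25% and 3.25% of each selection, where members were 5.71% of the gate. Their Tom+ shares were 20.2%, 39.8% and 68.2%, against 60.0% here. All comparisons below are of the summed cells of each selection in each library without cells of another lineage, and since the selections share libraries and cells, no test of a difference was available. In the Vtn, Cxcl14 and G0s2 cells Lpl was at 2379 and 2033 CPM in Tom+ and Tom-, against 2109 and 1843 CPM in the members, so the lipase was no higher in the members. Col4a1 was at 2345 and 1574 CPM there, Postn at 439 and 173 CPM and Apoe at 3104 and 2595 CPM. The members had the higher collagen and periostin levels and the lower Apoe of the pair. In the Cfd, Car3 and Itm2a cells Col4a1 was at 678 and 839 CPM and Lpl at 515 and 1209 CPM. In the Ptgds, Pi15, Eln and Pdlim3 cells Col3a1 was at 10114 and 10188 CPM, below the Tom+ and above the Tom- members, but Col4a1 at 848 and 765 CPM and Lpl at 389 and 379 CPM. Meox1 was at 38.6 and 33.6 CPM, Pparg at 46.2 and 44.1 CPM and Fabp4 at 2277 and 1730.4 CPM in the Vtn, Cxcl14 and G0s2 cells, near the levels of the members given above except for a lower Meox1 in Tom- and a somewhat lower Fabp4. The members thus had the highest Col4a1 and Postn of these 4 selections in both libraries, and shared high Col3a1 with the Ptgds selection and Lpl, Pparg and, in Tom+, Meox1 with the Vtn selection.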

How the data were processed

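The authors sorted gWAT cells, made 10x 3' v3.1 libraries and counted UMIs with Cell Ranger 3.0.2 on mm10, per the labels. The deposited values were raw counts of UMIs for 31054 features and every barcode, without normalization, for 1 Tom+ and 1 Tom- sample. No column was left unused.

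Members and gene lists were chosen with earlier results of these data known. Cells were scored, chosen and summed per library with numpy 2.4.6 and pandas 2.3.3 under Python 3.11.15, and intervals came from scipy 1.17.1. CPM used the UMIs of the summed cells. Genes averaging 20 CPM or more over the 4 pools (members and rest of each library) were compared, and 2-fold counted as a call. The text names the score and reporter genes, and the 20 highest and 15 lowest genes by the lower of the ratios in both libraries. It also names the 12 highest and 12 lowest Tom+ over Tom- ratios among genes with at least 50 CPM in members. From 31 gene lists it gives abundant genes and genes past 2-fold, some of the latter only as a count. Mitochondrial, ribosomal protein and predicted genes were left out of these ranks and a score gene was left out of the counts of its list.

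Levels, calls, list counts and thinned shares were computed on the 370 members without another lineage, and calls and Tom+ shares also on all 400. The planned groups of the next 1600 and remaining cells along the score would have divided cells tied at 0, so cells above 0 and at 0 were separated instead. Scrublet (scanpy 1.11.5) marked 2 of 3524 Tom+ and 122 of 6717 Tom- cells as doublets, of which none was a member and none of the 30 cells set aside, so it removed no doublets from the members. Thinning drew 6959 UMIs per cell, the lower of the 10th percentiles of depth. The scripts were tested on simulated counts. Total depth per member cell had medians of 16975.5 (Tom+) and 12883.5 (Tom-) UMIs. RefSeq promoter windows came from the given table, and coordinates from GENCODE on GRCm38. Alternatives changed the number of members, the score genes, the gate, the doublet call, the scaling and the filter.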

Additional observations from a re-analysis of the deposited data

Results flagged for a closer look

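For 5 of the named genes the ratio of Tom+ over Tom- ran one way in the 370 members and the other way in the rest, with neither counting interval reaching 0 and at least 1 on the log2 scale between the ratios. The difference between members and rest was not tested for any of them, and no explanation was tested.

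Tnc, tenascin-C, had a log2 ratio of Tom+ over Tom- of 1.36 (0.90 to 1.84) in members and -1.04 (-1.59 to -0.51) in the rest, at 56.7 and 22.1 CPM against 1.16 and 2.38 CPM in the rest, and was found in 34 Tom+ and 9 Tom- members. Smpd3, a sphingomyelinase, had -1.21 (-1.57 to -0.85) in members and 0.504 (0.43 to 0.57) in the rest, at 30.9 against 71.3 CPM in Tom+ and Tom- members. Cd55, which restrains complement on the cell surface, had -0.90 (-1.21 to -0.59) and 0.20 (0.14 to 0.25), at 44.6 against 83.3 CPM in members.

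Saa3, an acute phase gene, had 1.02 (0.65 to 1.40) in members and -0.22 (-0.28 to -0.17) in the rest, with 33.9% of its Tom+ member UMIs in 1 cell. Its sign turned with 200 cells, with members chosen within each library, without cells of at least 3 lineage UMIs and without the shared barcodes. Sfrp4, a secreted Wnt inhibitor, had 2.37 (1.81 to 2.98) and -0.87 (-1.03 to -0.71), but 1 Tom+ cell held 201 of its UMIs (78.2%), and its sign turned in the last 2 of these settings.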

How the results depend on the processing

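The Tom+ share of the members (60.0% with all 400) depended on how many cells were taken. It was 67.5% with the 200 highest cells, 53.25% with 800 and 54.25% without Cd36 in the score, beside 40.2% of the gate. Other settings changed the gate too. The share was 54.75% without cells holding at least 3 mural, endothelial or leukocyte UMIs (37.2% of that gate) and 53.75% with under 5% mitochondrial UMIs (36.9%). Without both another lineage and shared barcodes it was 54.8% (38.1%). Choosing the members within each library gave 40.25%, which that choice fixes near the share of the gate. Its other alternatives ran from 55.7% to 60.0%.

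The counts of genes past 2-fold (64 higher and 51 lower in members, 69 higher and 78 lower in Tom+ members) moved by over 1.5 times in the following settings. With 200 cells, 173 and 147 genes were higher and lower in Tom+ members, and with 800 cells 43 were higher in Tom+ and 33 lower in members than in the rest. Without Aspn in the score 140 were higher in Tom+ members. Among genes averaging 50 CPM or more the 4 counts were 30, 18, 28 and 40, and with no filter 598, 200, 1004 and 891, since fewer and more genes were compared. Size factors moved the median log2 ratio of members over rest in Tom- from 0.08 to -0.04.

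Of 5856 values of the 122 named genes under 16 settings, 3996 stayed inside the counting interval of the reported ratio, 1850 moved outside it, and 10 changed the sign of a ratio of at least 2-fold. Between Tom+ and Tom- members these were Cxcl10 with 200 cells (0.020), Saa3 with 200 cells (-0.24), with members chosen within each library (-0.37), without cells of at least 3 lineage UMIs (-1.89) and without shared barcodes (-0.22), Sfrp4 in the last of these settings (-0.60 and -0.17), and Cxcl13 with all 400 members (2.24, few UMIs lying in the 370), and between Tom+ members and rest Cxcl2 without Cd36 in the score (0.062) and with all 400 members (0.32). The cause was not tested. Leaving out the 30 cells of another lineage, leaving out shared barcodes and both together were chosen after seeing the data. No paired analysis was possible because each fraction had 1 library. Depth limits Cdkn2a and other genes of few UMIs, and 1 library per fraction limits every ratio between Tom+ and Tom-.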
